A study of Mus musculus with 6 samples.

Results

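The 10 genes described here encode inflammatory mediators and their controls: the interleukin-1 ligands Il1b and Il1a and their antagonist Il1rn, the inflammasome sensor Nlrp3, the cytokines Tnf and Il6, the chemokine Cxcl2, the inducible enzymes Nos2 and Ptgs2, and the anti-inflammatory cytokine Il10. They were taken by name from the 32285 genes in 6 single-nucleus RNA libraries, and all 10 were found. The libraries came from cortical lesions of adult mice after photothrombotic (PT) injury, in which light and a dye close cortical vessels. Wild-type mice with no listed treatment (Ctrl), wild-type mice given ADWA11, an antibody that blocks integrin αvβ8, and mice with Col1a2(creER) and Tgfbr2(flox) alleles (Tgfbr2-cKO) were each sampled at 7 and 21 days post injury (dpi). The Cre of the Tgfbr2-cKO mice is driven by the Col1a2 promoter, which is active in fibroblasts, and is induced by tamoxifen. ADWA11 was injected intraperitoneally from the day of injury onwards. The study's general methods name tamoxifen-treated, Cre-negative or flox-heterozygous littermates among the controls of its knockout strains, and an IgG1 isotype control for ADWA11. The labels list the Ctrl mice as WT with no treatment, and which of these controls the 2 Ctrl libraries had is not given in the sources used here, nor is the exact age of each mouse. Tissue of 1 male and 1 female mouse went into each library and each group had 1 library. No test across mice was made. The female and male nuclei of a library are given apart below, as values that share a library.

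Interleukin-1β and interleukin-1α bind the same receptor and drive neutrophil recruitment and fever, and the receptor antagonist encoded by Il1rn competes with them. Pro-interleukin-1β is cut to its active form by caspase-1 within the NLRP3 inflammasome, whereas interleukin-1α is active without this step. After brain injury these genes are known mainly from myeloid cells, which also make TNF, CXCL2 (a neutrophil attractant) and IL-10, while IL-6 and the prostaglandin-forming enzyme of Ptgs2 are also made by stromal and vascular cells.

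After filtering, 61917 of 67360 barcodes were kept, between 6583 and 13083 a library, with a median of 4607 to 8462 unique molecular identifiers (UMIs) per nucleus. Library makeup differed widely. Neuron-like nuclei were 55.6% of the 7 dpi Tgfbr2-cKO library and 11.1% of the 21 dpi Tgfbr2-cKO library, against at most 1.56% in the other 4. Myeloid nuclei were between 22.6% and 55.3% of a library, and neutrophil-like nuclei between 0.113% and 1.22%. Tgfbr2 itself was at 249 and 233 CPM (UMIs scaled to a common library total, defined below) in fibroblast-like nuclei of the Tgfbr2-cKO libraries, inside the range of 197 to 322 CPM in the other 4. A count over the whole gene says little on the loss of a floxed exon. Between 21 and 61 barcode sequences were shared by any 2 libraries. Groups were named from marker genes, and all markers of a list were detected in every microglia-like group of over 50 nuclei and in every macrophage-like, dendritic-like and fibroblast-like group. The 12 to 25 neutrophil-like nuclei of each 7 dpi library lacked between 2 and 5 of the 11 neutrophil markers.

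Levels are in CPM, the UMIs of a gene divided by the non-mitochondrial UMIs of a library or of a cell group within it and multiplied by 1e6, with exact Poisson 95% intervals. Comparisons are log2 ratios of CPM with exact binomial 95% intervals. Both cover counting error only, not the difference between mice. A gene was called past 2-fold where its log2 ratio was at least 1 in size and its interval excluded 0, and where 1 library had no UMI the ratio was taken against 3 UMIs and is a lower bound. Since a library sums all its nuclei, more cells of a type and more RNA per cell cannot be told apart in its CPM. Neuron-like nuclei of the 7 dpi Tgfbr2-cKO library, which should lack most of these transcripts, held 0.17 CPM of Il1b, 0.39 of Il1a, 0.18 of Cxcl2, 0.06 of Il6 and 0.04 of Nos2, as a measure of free RNA in that library. Oligodendrocyte-like nuclei there held more Il1a, at 3.13 CPM (1.56 to 5.60) on 11 UMIs. Over the libraries 12.3% of the oligodendrocyte-like nuclei were called doublets and kept. Whether their Il1a UMIs were free RNA or came from doublets was not tested.

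The genes lie on 5 chromosomes (mm10). Il1b (ENSMUSG00000027398, chr2:129364570-129371139, minus strand), Il1a (ENSMUSG00000027399, chr2:129299610-129309972, minus) and Il1rn (ENSMUSG00000026981, chr2:24336853-24351494, plus) share chromosome 2. Il6 (ENSMUSG00000025746, chr5:30013114-30019981, plus) and Cxcl2 (ENSMUSG00000058427, chr5:90903871-90905938, plus) are on chromosome 5, and Nlrp3 (ENSMUSG00000032691, chr11:59541568-59566956, plus) and Nos2 (ENSMUSG00000020826, chr11:78920787-78960254, plus) on chromosome 11. Il10 (ENSMUSG00000016529, chr1:131019845-131024974, plus) and Ptgs2 (ENSMUSG00000032487, chr1:150100031-150108227, plus) are on chromosome 1, and Tnf (ENSMUSG00000024401, chr17:35199381-35202007, minus) on chromosome 17.

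The 250 bases upstream of each RefSeq start (GRCm38.p6) were searched, and the windows of Cxcl2 and Il6 are shown because they hold a match, a choice made after the search. Capitals mark the match to the NF-kB (kappaB) consensus, the element bound by the transcription factor that drives many inflammatory genes. The Cxcl2 window is chr5:90903649-90903898 and the Il6 window chr5:30012864-30013113, both on the plus strand.
Cxcl2: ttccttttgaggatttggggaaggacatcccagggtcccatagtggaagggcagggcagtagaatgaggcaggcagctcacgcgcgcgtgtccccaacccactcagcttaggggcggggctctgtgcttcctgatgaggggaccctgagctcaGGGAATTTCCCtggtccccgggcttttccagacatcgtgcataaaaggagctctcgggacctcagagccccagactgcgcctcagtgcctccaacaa
Il6: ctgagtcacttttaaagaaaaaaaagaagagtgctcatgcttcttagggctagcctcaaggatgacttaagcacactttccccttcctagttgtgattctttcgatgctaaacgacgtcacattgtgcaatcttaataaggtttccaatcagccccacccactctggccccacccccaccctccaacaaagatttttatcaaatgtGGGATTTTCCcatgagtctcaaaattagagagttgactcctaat
The match began 97 bases before the start of Cxcl2 and 44 bases before that of Il6. RefSeq promoters were matched for 8 of the 10 genes, with 11 windows in all, and 3 windows held a match on either strand (Il6, Cxcl2 and 1 of the windows of Nlrp3), beside 7.251% of the 32851 windows of all genes. Nos2 and Il10 were not matched. The windows of Il1b, Il1a, Tnf, Ptgs2 and Il1rn held none. A match describes the letters of a window and is no evidence of binding, and the absence of a match in the other windows says only that the letters were not found there.

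Most of the genes were concentrated in 1 or 2 cell groups. Neutrophil-like nuclei, whose 10 leading genes include Il1b itself, were 339 of all nuclei and held 56.3% of the 2623 Il1b UMIs and 35.8% of the 1630 Cxcl2 UMIs. Macrophage-like nuclei held 63.7% of Il1a, 60.9% of Il1rn, 61.0% of Il10, 44.1% of Nlrp3, 42.9% of Tnf and 38.0% of Cxcl2 UMIs. The 5410 myeloid nuclei that no marker list named held 10.0% of Il1b, 16.0% of Il1a, 16.7% of Tnf and 16.8% of Nlrp3 UMIs. Fibroblast-like nuclei held 192 of the 320 Il6 UMIs, 37.9% of Ptgs2 and 32.8% of Nos2, and endothelial-like nuclei held 44.4% of the 421 Nos2 UMIs. Of the UMIs of all genes, macrophage-like nuclei held 19.4%, fibroblast-like 18.7%, unnamed myeloid 5.25%, endothelial-like 2.12% and neutrophil-like 0.155%.

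**Figure D1:**
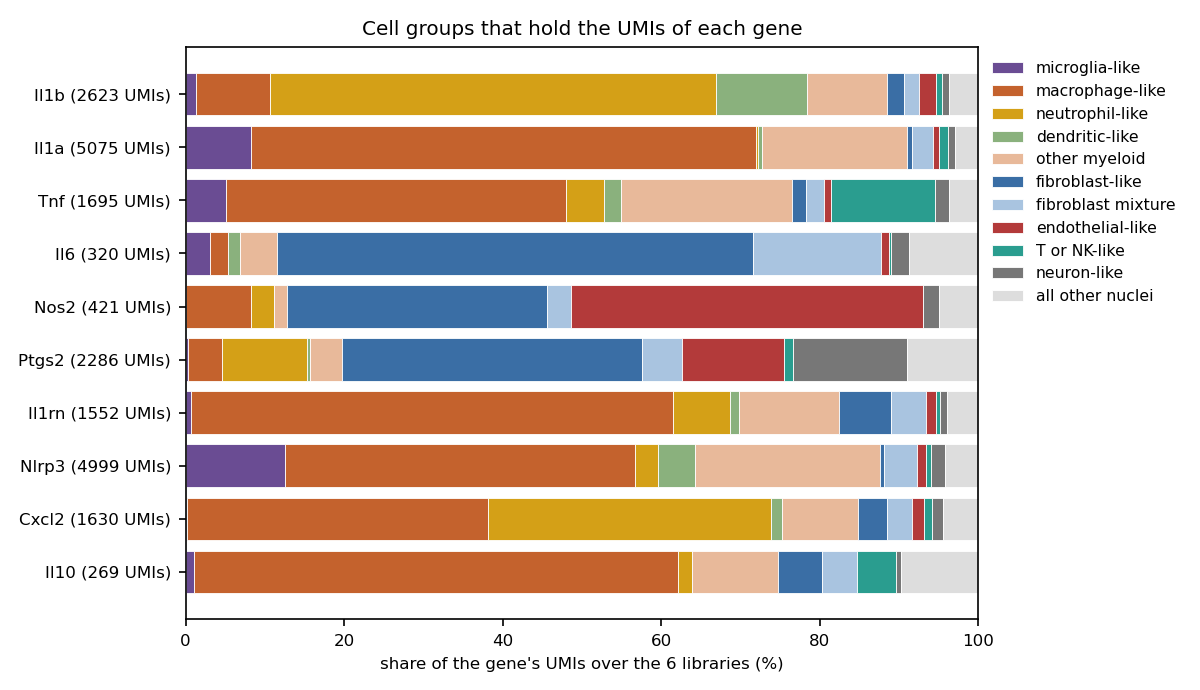
Share of each gene's UMIs, in percent over the 6 libraries, by cell group, with the gene's total UMIs beside its name. Il1b UMIs were mostly in neutrophil-like nuclei, Il1a, Il1rn and Il10 UMIs in macrophage-like nuclei, and Il6 UMIs in fibroblast-like nuclei.

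In whole libraries with all nuclei kept, ADWA11 at 21 dpi was the treatment comparison with most of these genes higher, though without neural nuclei Tgfbr2-cKO at 21 dpi also had 7 higher. Against Ctrl at 21 dpi, 7 of the 10 genes were past 2-fold higher and 0 lower, beside 6.55% of all genes higher and 9.0% lower. The median log2 ratio of the 10 genes was 1.43, beside -0.03 over all genes. The share of all genes was not counted without neural nuclei, in either sex alone, without top nuclei or with groups pooled. Member counts under these alternatives, here and below, have no such share beside them. The makeup of these libraries also differed, with 51.1% myeloid nuclei in ADWA11 and 26.0% in Ctrl, 5451 of 12413 and 1428 of 13083 macrophage-like nuclei, and 1.16% and 0.466% neutrophil-like nuclei. Within macrophage-like nuclei 2 of the 7 genes, Il1a and Cxcl2, were past 2-fold, and Il1rn was at a log2 ratio of 0.10 and Il1b at -0.44. Cxcl2 was 4.94-fold higher, Il1b 3.99-fold, Il10 3.95-fold, Il1a 3.33-fold, Il1rn 3.03-fold, Il6 2.40-fold and Nos2 2.16-fold. Each of the 7 was also higher in the female and in the male nuclei alone, told apart by Xist and Y-linked transcripts, but in female nuclei the log2 ratios were between 0.30 (Il6) and 1.5 (Il1a), and only 3 genes passed 2-fold.

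At 7 dpi ADWA11 differed from Ctrl in few of them. Il10, with a log2 ratio of 1.72 (1.03 to 2.49), and Cxcl2, with 1.70 (1.00 to 2.46), were higher than in Ctrl, and Il6 was lower at -1.34 (-2.13 to -0.57). These 2 genes higher and 1 lower stood beside 6.07% of all genes higher and 4.57% lower, and the median of the 10 genes was -0.20, beside 0.06 over all genes. The makeup of these libraries differed too. Macrophage-like nuclei were 4934 of 10950 in ADWA11 and 1822 of 8294 in Ctrl, and microglia-like nuclei were 24 and 1150.

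The Tgfbr2-cKO library at 7 dpi had 8 of the 10 genes past 2-fold lower than Ctrl and 0 higher. All genes leaned the same way, with 26.6% lower, 21.2% higher and a median of -0.30, against a median of -1.91 for the 10 genes. When neuron-like, astrocyte-like, oligodendrocyte-like and precursor-like nuclei were left out of both libraries, 4 of the 10 genes were past 2-fold higher and 0 lower. At 21 dpi Il1b and Cxcl2 were higher in the Tgfbr2-cKO library and Nos2 lower, which makes 2 genes higher and 1 lower beside 15.1% and 8.13% of all genes. The median log2 ratio was 0.36, beside -0.03 over all genes. In female nuclei alone 0 genes were higher and 5 lower, in male nuclei 5 higher and 1 lower, so the female and male nuclei of this library differed in direction. Without the neural nuclei 7 were higher and 0 lower. With all deposited barcodes neither Il1b, at 11.6 against 6.46 CPM, nor Cxcl2, at 4.64 against 4.45 CPM, was past 2-fold.

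From 7 to 21 dpi, Ctrl libraries had Cxcl2 higher and Il1rn lower, 1 gene each way, beside 16.0% of all genes higher and 5.39% lower, with medians of 0.00 for the 10 genes and 0.13 for all. ADWA11 libraries had 6 higher and 0 lower, beside 12.3% and 7.77% of all genes, with medians of 1.07 and 0.09. Tgfbr2-cKO libraries had 8 higher and 0 lower, beside 25.1% and 8.60%, with medians of 2.31 and 0.40. Without the neural nuclei 3 were higher and 1 lower in Tgfbr2-cKO. The treatment and time comparisons share libraries and are not independent of each other.

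**Figure D2:**
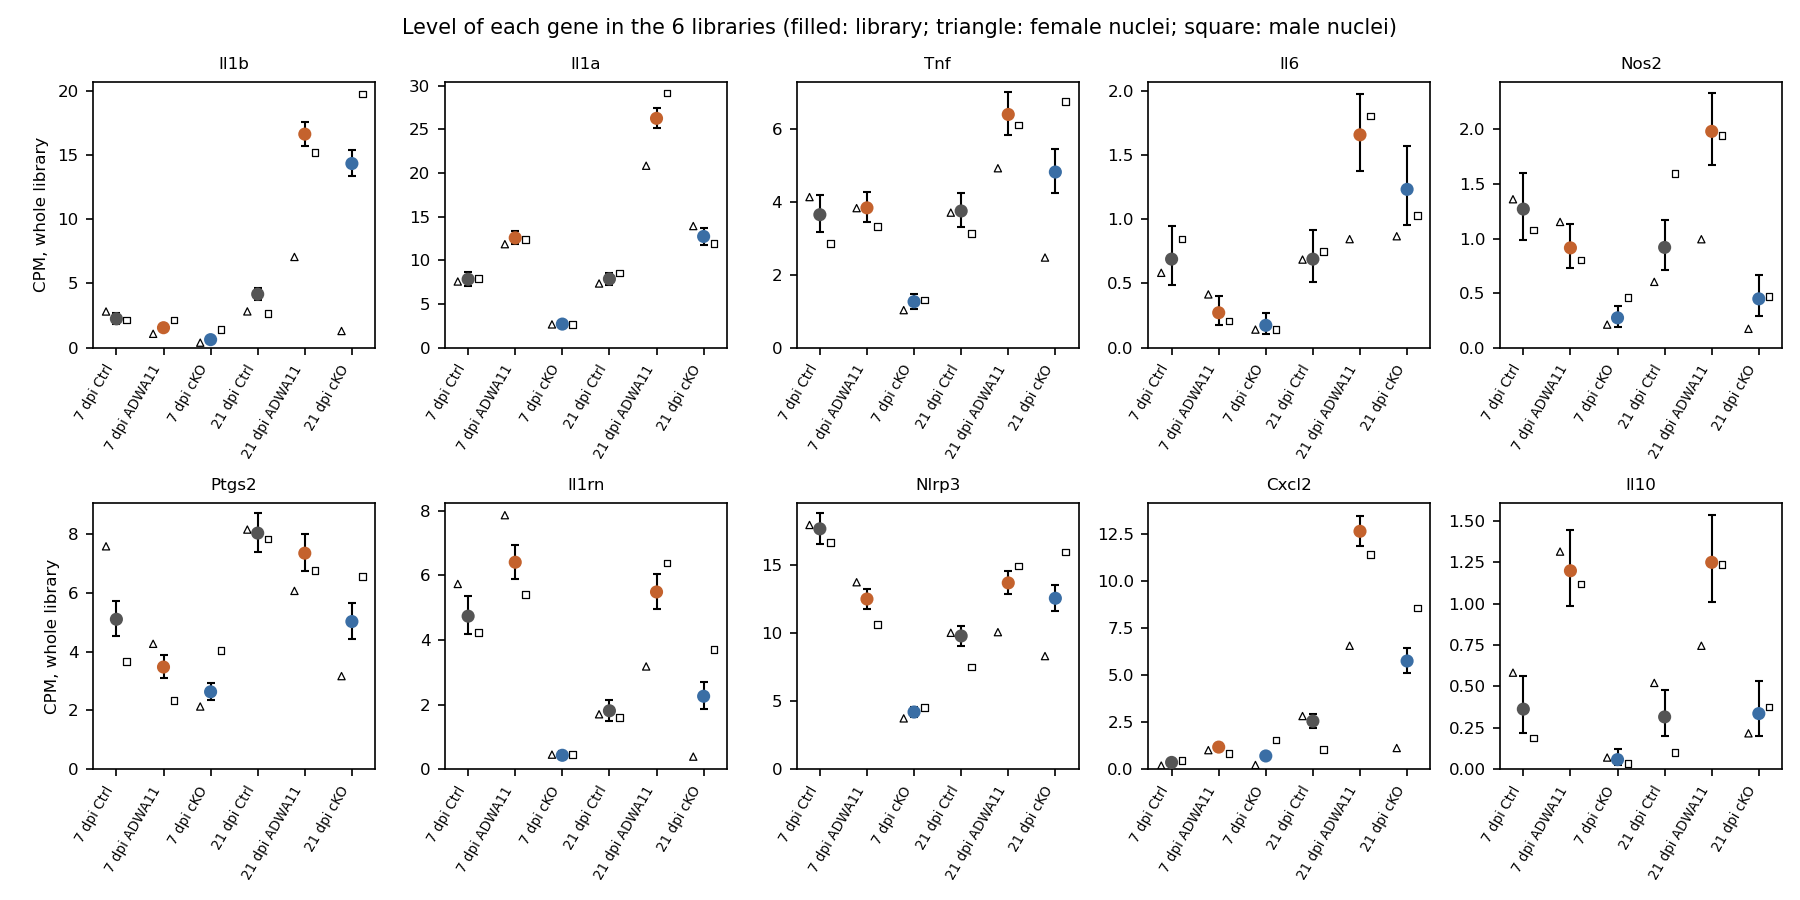
CPM of each gene in the whole of each library (filled circles, with exact Poisson 95% intervals), and in its female nuclei (triangles) and male nuclei (squares). Il1b reached 16.6 CPM in the ADWA11 library and 14.3 CPM in the Tgfbr2-cKO library at 21 dpi, and in the latter the male nuclei were at 19.7 CPM and the female nuclei at 1.30 CPM.

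Il1b, the gene of the main secreted interleukin-1 ligand, was at 2.25 CPM (1.87 to 2.68) in Ctrl, 1.56 (1.31 to 1.84) in ADWA11 and 0.63 (0.50 to 0.79) in Tgfbr2-cKO at 7 dpi. At 21 dpi it was at 4.17 CPM (3.70 to 4.67), 16.6 (15.7 to 17.6) and 14.3 (13.3 to 15.4). No 2 of the 6 intervals overlapped. The 7 dpi Tgfbr2-cKO library was 55.6% neuron-like nuclei, and its ratio to Ctrl turned positive without neural nuclei. ADWA11 and Tgfbr2-cKO at 21 dpi were the highest. With all deposited barcodes the 21 dpi values were 6.46 CPM in Ctrl, 18.3 in ADWA11 and 11.6 in Tgfbr2-cKO. Tgfbr2-cKO was then not past 2-fold from Ctrl. With ADWA11 the female and male nuclei were both above those of Ctrl, at log2 ratios of 1.32 and 2.52. In Tgfbr2-cKO the female nuclei were lower than in Ctrl (-1.12) and the male nuclei higher (2.90). Neutrophil-like nuclei, of which this library had 80, were called female in 8 cases and male in 24, with no call for 48.

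Within neutrophil-like nuclei, Il1b was at 573, 1351 and 199 CPM in Ctrl, ADWA11 and Tgfbr2-cKO at 7 dpi, where the groups held 25, 17 and 12 nuclei. At 21 dpi, with 61, 144 and 80 nuclei, it was at 1433 CPM (1201 to 1698), 2399 (2230 to 2578) and 2608 (2386 to 2845). ADWA11 and Tgfbr2-cKO did not overlap Ctrl, but at log2 ratios of 0.74 and 0.86 neither passed 2-fold, while the share of neutrophil-like nuclei in the library was 0.466% in Ctrl, 1.16% in ADWA11 and 1.22% in Tgfbr2-cKO. For Tgfbr2-cKO the ratio was -0.82 in female nuclei, on 8 against 24 UMIs, and 1.60 in male nuclei, on 321 against 11. Over whole libraries at 21 dpi the barcode filter left 290 of 532 Il1b UMIs in Ctrl. It left 1223 of 1529 in ADWA11 and 767 of 775 in Tgfbr2-cKO. Groups were named after the filter, and its part in the neutrophil-like shares and levels was not tested. Dendritic-like nuclei held Il1b at 29.9 to 80.1 CPM in 5 libraries and at 255 CPM (177 to 356) in the 41 such nuclei of Tgfbr2-cKO at 7 dpi, on 34 UMIs in 13 nuclei. Its interval lay above those of all the others, and the 80.1 CPM (68.0 to 93.8) of ADWA11 at 21 dpi lay above those of the remaining 4. In macrophage-like nuclei Il1b was at 1.03 CPM in Ctrl, 0.61 in ADWA11 and 0.95 in Tgfbr2-cKO at 7 dpi, the last on 1 UMI. At 21 dpi it was at 6.96, 5.14 and 1.26 CPM in the same order. From 7 to 21 dpi it was past 2-fold higher in Ctrl (log2 ratio 2.76) and in ADWA11 (3.09). The lowest values under any alternative were 1.07 and 2.58, both in male nuclei. Macrophage-like nuclei of Tgfbr2-cKO at 21 dpi were lower than Ctrl (-2.47, -3.99 to -1.23), on 6 against 44 UMIs. Of the Ctrl UMIs, 16 came from 1 nucleus. The 6 UMIs of Tgfbr2-cKO lay in 3 nuclei, so none were left without the top 5 nuclei of each library, and the value of -0.59 is a bound. The ratio turned to 1.08 with all myeloid nuclei but neutrophil-like and dendritic-like ones pooled. That pool takes in the unnamed myeloid nuclei, which held 164 Il1b UMIs in Tgfbr2-cKO at 21 dpi, 86 of them in 1 nucleus, and 51 in Ctrl.

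Il1a, the interleukin-1 ligand that needs no inflammasome, had 5075 UMIs in all. At 7 dpi its library CPM was 7.84 (Ctrl), 12.6 (ADWA11) and 2.71 (Tgfbr2-cKO). At 21 dpi it was 7.87, 26.3 and 12.7 in the same order. ADWA11 at 21 dpi was the highest and the neuron-rich Tgfbr2-cKO library at 7 dpi the lowest, at a log2 ratio to Ctrl of -1.53 that turned to 1.32 without neural nuclei. The 2 Ctrl libraries overlapped, as did ADWA11 at 7 dpi and Tgfbr2-cKO at 21 dpi.

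Within macrophage-like nuclei Il1a was higher in both treated groups than in Ctrl. Its CPM there at 7 dpi was 12.4 (10.4 to 14.7) in Ctrl, 26.6 (24.9 to 28.3) in ADWA11 and 28.6 (19.3 to 40.9) in Tgfbr2-cKO, and at 21 dpi 19.8 (16.5 to 23.6), 56.6 (54.0 to 59.3) and 48.3 (42.2 to 54.9). Both treated groups were past 2-fold above Ctrl at both days, at log2 ratios of 1.10 (ADWA11) and 1.21 (Tgfbr2-cKO) for 7 dpi and of 1.52 and 1.29 for 21 dpi. The female and the male nuclei had ratios of 1.19 and 1.06 for ADWA11 and 1.64 and 0.95 for Tgfbr2-cKO at 7 dpi, and 1.57 and 1.37, and 1.42 and 0.98, at 21 dpi. Different sub-clusters made up the macrophage-like nuclei of each library: at 7 dpi 2 and 6 in Ctrl, 1, 11 and 12 in ADWA11 and 19 and 23 in Tgfbr2-cKO. At 21 dpi these were 2, 0 and 9 in Ctrl, 0, 8, 13 and 15 in ADWA11 and 20 and 9 in Tgfbr2-cKO. Against the other myeloid nuclei, sub-cluster 1 had the microglia marker Gpr34 and the macrophage marker Mrc1 raised. Sub-cluster 2 had Fcrls and Ms4a7 raised in the same way. Whether macrophage-like nuclei include microglia that lost their markers was not tested. Tgfbr2-cKO at 7 dpi had 222 macrophage-like nuclei, beside 1309 unnamed myeloid ones. With all myeloid nuclei but neutrophil-like and dendritic-like ones pooled, a choice made after seeing the data, the 4 ratios were between 0.63 and 0.90, all under 2-fold. Microglia-like nuclei held Il1a at 25.3 CPM (21.7 to 29.4) in Ctrl at 7 dpi and 41.0 (27.0 to 59.6) at 21 dpi, and in Tgfbr2-cKO at 45.3 (36.5 to 55.6) and 48.4 (40.5 to 57.5). At 7 dpi, 1095 of the 1150 Ctrl nuclei were in sub-cluster 5 and 651 of the 657 Tgfbr2-cKO ones in sub-cluster 4. In sub-cluster 4, 4 neuron markers were raised and UMIs per nucleus were 0.50 of the library median. Genotype and sub-cluster cannot be told apart in this comparison. ADWA11 libraries had 24 and 1 microglia-like nuclei, too few for a level.

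Il1rn, the gene of the interleukin-1 receptor antagonist, followed another order. It was at 4.74 CPM (4.18 to 5.35) in Ctrl, 6.41 (5.90 to 6.95) in ADWA11 and 0.43 (0.32 to 0.57) in Tgfbr2-cKO at 7 dpi, and at 1.81 (1.51 to 2.16), 5.49 (4.96 to 6.05) and 2.26 (1.87 to 2.70) at 21 dpi. It was highest in ADWA11 at both days, and the 7 and 21 dpi ADWA11 intervals overlapped each other slightly. Macrophage-like nuclei at 7 dpi held 16.0 CPM (Ctrl), 11.5 (ADWA11) and 7.64 (Tgfbr2-cKO). Those at 21 dpi held 8.54, 9.15 and 2.52 CPM in the same order. There ADWA11 was not past 2-fold at either day, and Tgfbr2-cKO was lower at both, at -1.06 (-2.30 to -0.05) on 8 UMIs and -1.76 (-2.80 to -0.84) on 12. With the same pooling of myeloid nuclei the 21 dpi ratio was -0.56, and at 7 dpi the ratio was 0.20 at a lower clustering resolution. Neutrophil-like nuclei held Il1rn at 128 CPM in Ctrl, 133 in ADWA11 and 287 in Tgfbr2-cKO at 21 dpi, the last past 2-fold at 1.16 (0.25 to 2.20), though the mean of CPM per nucleus gave -0.26.

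Nlrp3, the sensor subunit of the inflammasome, was not past 2-fold from Ctrl in the microglia-, macrophage-, neutrophil-, dendritic- or fibroblast-like nuclei of any library with enough of them for a ratio. No ratio was taken in other groups. At 7 dpi its library CPM was 17.7 (Ctrl), 12.5 (ADWA11) and 4.21 (Tgfbr2-cKO). The 21 dpi libraries held 9.81, 13.7 and 12.6 CPM. The low value of Tgfbr2-cKO at 7 dpi (-2.07, -2.23 to -1.91) became 0.71 without neural nuclei. Microglia-like groups of over 50 nuclei held 45.4 to 65.3 CPM and macrophage-like groups 22.5 to 45.8 CPM, and dendritic-like groups 33.2 to 52.6 CPM. Microglia-like nuclei were above macrophage-like ones in the same library without overlap in 3 libraries, at 45.4 against 26.8 CPM in Ctrl at 7 dpi, for example, and with overlap in Tgfbr2-cKO at 7 dpi, at 54.7 (45.0 to 66.0) against 45.8 CPM (33.8 to 60.8).

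Tnf, the gene of tumour necrosis factor, was at 3.65 (Ctrl), 3.84 (ADWA11) and 1.26 CPM (Tgfbr2-cKO) in the 7 dpi libraries and at 3.75, 6.40 and 4.82 CPM at 21 dpi. Only Tgfbr2-cKO at 7 dpi was past 2-fold from Ctrl (-1.53), and it was at 1.27 without neural nuclei. In T or NK-like nuclei, which held 221 of its 1695 UMIs, Tnf was at 23.7 CPM (12.9 to 39.7) in Ctrl and 49.9 (36.3 to 67.0) in ADWA11 at 7 dpi, where Tgfbr2-cKO had 28 such nuclei and 2 Tnf UMIs, both in 1 nucleus. At 21 dpi it was at 27.8, 11.8 and 72.7 CPM, with 23 of the 75 UMIs of Tgfbr2-cKO at 21 dpi in 1 nucleus. Macrophage-like nuclei held it at 5.23 CPM (3.95 to 6.79), 6.19 (5.41 to 7.06) and 15.3 (8.73 to 24.8) at 7 dpi and at 11.1, 10.4 and 7.77 CPM at 21 dpi. Tgfbr2-cKO at 7 dpi was the only one past 2-fold from Ctrl, at 1.55 on 16 UMIs, and was at 0.84 without the top 5 nuclei of each library and at 0.56 in female nuclei. Microglia-like nuclei of that library were at 14.9 CPM (10.1 to 21.3) against 4.54 (3.08 to 6.44) in Ctrl, a log2 ratio of 1.72 (0.94 to 2.49), which turned to -1.65 when the myeloid nuclei were clustered at a lower resolution. The microglia-like nuclei of these libraries were mostly of different sub-clusters, as given for Il1a.

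Cxcl2, a neutrophil-attracting chemokine, had the largest ratio of highest to lowest library among the 10 genes. It was at 0.36 CPM (0.22 to 0.56) in Ctrl, 1.18 (0.97 to 1.42) in ADWA11 and 0.71 (0.56 to 0.87) in Tgfbr2-cKO at 7 dpi, and at 2.56 (2.20 to 2.96), 12.6 (11.8 to 13.5) and 5.75 (5.13 to 6.43) at 21 dpi. Each library at 21 dpi was above every library at 7 dpi. Female and male nuclei of ADWA11 at 21 dpi were above those of Ctrl, with log2 ratios of 1.22 and 3.45, whereas in Tgfbr2-cKO the female nuclei were below (-1.33) and the male above (3.04). With all deposited barcodes the Tgfbr2-cKO value was 4.64 CPM and Ctrl 4.45 CPM, so that call was lost.

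At 21 dpi macrophage-like nuclei of the ADWA11 library stood apart in Cxcl2. They held 16.8 CPM (15.4 to 18.3), on 520 UMIs in 99 of 5451 nuclei, against 1.11 (0.45 to 2.28) in Ctrl and 1.26 (0.46 to 2.74) in Tgfbr2-cKO. This is a log2 ratio of 3.92 (2.87 to 5.25) over Ctrl, with 3.18 in female nuclei, on 75 against 5 UMIs, and at least 3.22 in male nuclei, on 356 against 0 UMIs. The lowest value under any alternative was 2.48. Sub-cluster 8, led by Mmp12, Anxa1 and Cd200 among other genes, held 386 of the 520 UMIs. Free neutrophil RNA can be set beside this: per UMI of the neutrophil genes S100a8 and S100a9, the macrophage-like nuclei held 2.27 Cxcl2 UMIs and the neutrophil-like nuclei of the same library 0.181. For Il1b the same values were 0.694 and 0.518. The part of free neutrophil RNA in the Cxcl2 and Il1b levels of macrophage-like nuclei was not tested. In Tgfbr2-cKO at 7 dpi the macrophage-like level was 37.2 CPM, but on 39 UMIs in 4 nuclei, 29 of them in 1. Neutrophil-like nuclei held Cxcl2 at 185, 419 and 239 CPM at 7 dpi, where each group was under 50 nuclei and no ratio was taken. At 21 dpi they held it at 524 (388 to 693), 841 (742 to 949) and 1232 (1081 to 1398) CPM. Of the 21 dpi ratios, only that of Tgfbr2-cKO was past 2-fold from Ctrl, at 1.23 (0.78 to 1.71). That library's neutrophil-like nuclei held S100a8 and S100a9 at 51346 CPM, against 1312 to 5782 CPM in the other 5, and 112 of its 240 Cxcl2 UMIs were in 1 nucleus. The ratio was 1.54 without the 5 nuclei with most UMIs of each library. That step also took UMIs from Ctrl, whose 49 lay in 11 nuclei. It does not test how far the call rests on 1 nucleus. The ratio was -3.40 in female nuclei, on 1 against 18 UMIs, and at least 2.56 in male nuclei, on 171 against 0 UMIs. Over whole libraries at 21 dpi the barcode filter left 178 of 367 Cxcl2 UMIs in Ctrl. It left 931 of 1187 in ADWA11 and 308 of 309 in Tgfbr2-cKO.

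**Figure D3:**
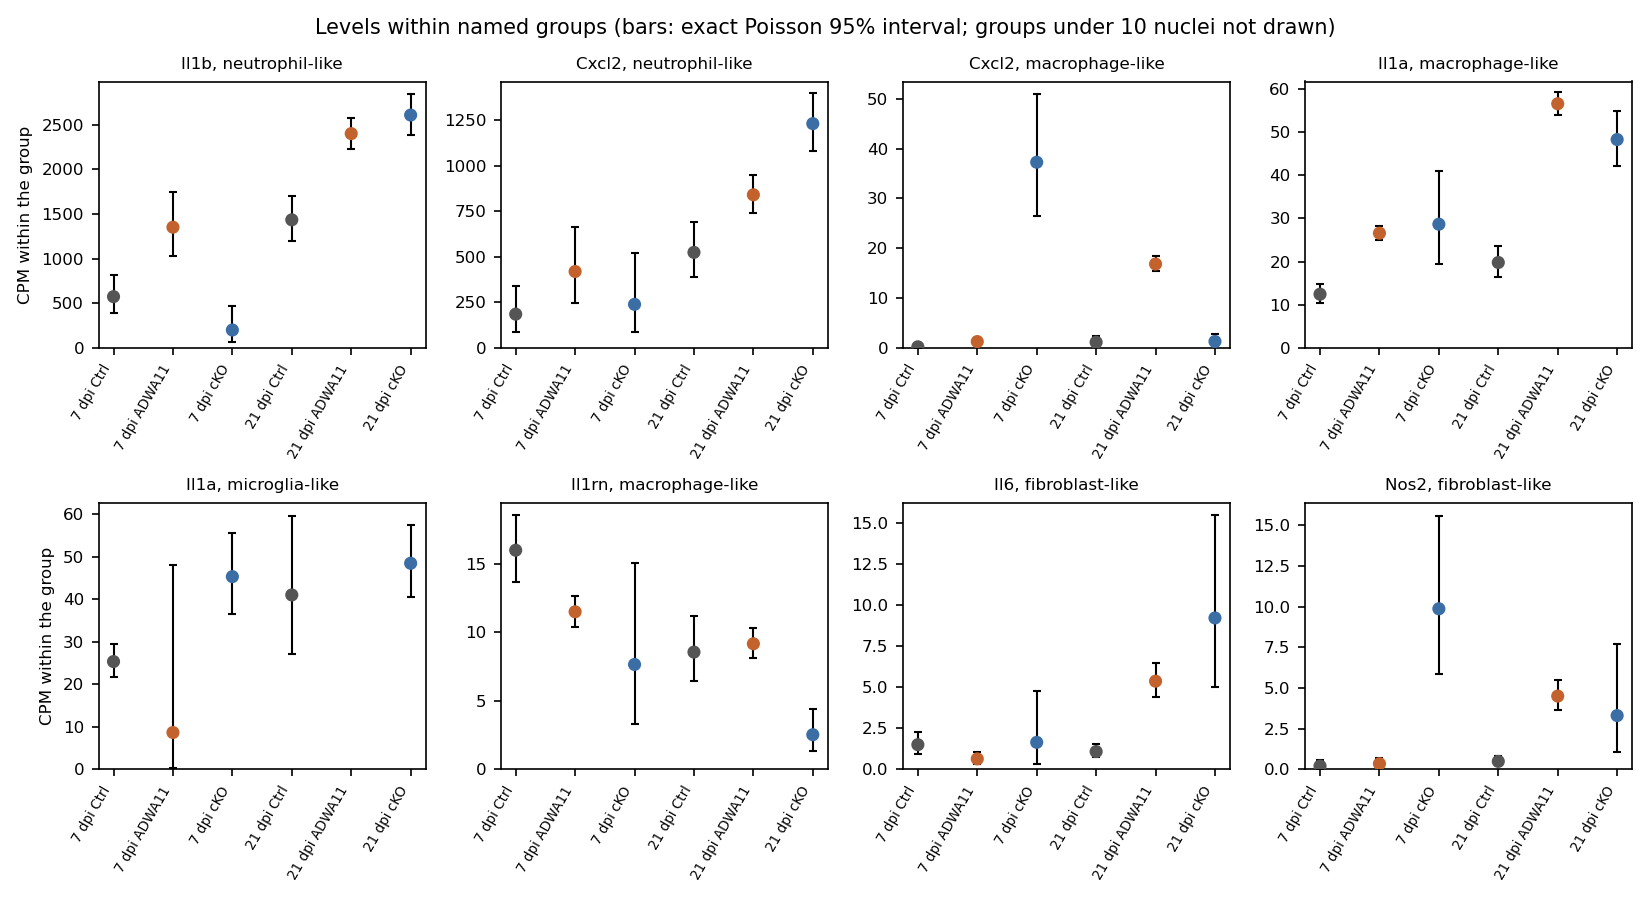
CPM of selected genes within named groups in the 6 libraries, with exact Poisson 95% intervals; groups under 10 nuclei are not drawn. At 21 dpi Il1a in macrophage-like nuclei was at 19.8 CPM in Ctrl, below the 56.6 CPM of ADWA11 and the 48.3 CPM of Tgfbr2-cKO, and Cxcl2 in macrophage-like nuclei was at 16.8 CPM in ADWA11 against 1.11 CPM.

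In fibroblast-like nuclei of ADWA11 at 21 dpi, 4 genes were past 2-fold above Ctrl: Il6, Nos2, Cxcl2 and Il1b. Cxcl2 there was at 1.91 CPM (1.36 to 2.61), on 39 UMIs in 31 nuclei, and Il1b at 1.27 CPM (0.83 to 1.86), on 26 UMIs of which 12 were in 1 nucleus. Il1b was only just past 2-fold, against 0.63 CPM (0.37 to 1.01) in Ctrl. It was at 1.06 against 0.58 CPM in female nuclei, under 2-fold, and at 1.41 against 0.31 CPM in male nuclei. In the ADWA11 library at 21 dpi Cxcl2 was at 3.02 CPM (1.61 to 5.16) in T or NK-like and 4.59 CPM (2.20 to 8.45) in endothelial-like nuclei. S100a8 and S100a9 were at 5.13 CPM in the fibroblast-like and 18.4 CPM in the endothelial-like ones. Il1b was likewise at 4.41 CPM (2.66 to 6.89) in T or NK-like and 9.65 CPM (5.97 to 14.7) in endothelial-like nuclei. The part of free RNA in either gene was not tested. Il6 was at 0.23 CPM (0.01 to 1.29) in T or NK-like nuclei of that library and had 0 UMIs in endothelial-like ones. Il6, whose product drives acute-phase and B-cell responses, was at 0.69 CPM in Ctrl at both days, at 0.27 (0.18 to 0.40) in ADWA11 and 0.17 (0.11 to 0.27) in Tgfbr2-cKO at 7 dpi, and at 1.66 (1.38 to 1.98) and 1.23 (0.95 to 1.57) at 21 dpi. In fibroblast-like nuclei it was at 1.5 CPM (0.95 to 2.25) in Ctrl and 0.63 (0.34 to 1.08) in ADWA11 at 7 dpi, a log2 ratio of -1.25, and at 1.08 (0.72 to 1.55) and 5.38 (4.42 to 6.48) at 21 dpi, a ratio of 2.32 (1.72 to 2.96). ADWA11 was thus below Ctrl at 7 dpi and above it at 21 dpi, but at 7 dpi the ratio was -0.35 in female nuclei, on 10 against 8 UMIs, and -2.20 in male nuclei, on 3 against 12. The 110 UMIs at 21 dpi lay in 32 of 2538 nuclei, the ratio was 1.85 without the top 5 nuclei of each library, and it was 0.97 in female and 2.09 in male nuclei. Tgfbr2-cKO at 21 dpi was at 9.23 CPM (5.05 to 15.5), but 13 of its 14 UMIs were in 1 nucleus. Fibroblast-like sub-clusters, numbered apart from the myeloid ones, also differed. At 21 dpi sub-cluster 0 held 2274 of 2538 nuclei in ADWA11 and 2030 of 3697 in Ctrl, and sub-cluster 4 held 26 and 998. From 7 to 21 dpi sub-cluster 2 went from 1029 to 85 nuclei in Ctrl and from 1213 to 34 in ADWA11. The part of this makeup in the fibroblast-like ratios of any gene was not tested.

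Nos2, the gene of inducible nitric oxide synthase, was at 1.27, 0.92 and 0.27 CPM in the 7 dpi libraries and at 0.92, 1.98 and 0.45 CPM at 21 dpi. Fibroblast-like nuclei held it at 0.20 CPM (0.04 to 0.57) in Ctrl, 0.34 (0.14 to 0.70) in ADWA11, on 7 UMIs in 1 nucleus, and 9.86 (5.84 to 15.6) in Tgfbr2-cKO at 7 dpi, the last on 18 UMIs in 3 nuclei. At 21 dpi it was at 0.48 (0.26 to 0.83), 4.50 (3.62 to 5.51) and 3.30 (1.07 to 7.70) CPM, the last on 5 UMIs in 1 nucleus. ADWA11 was above Ctrl by 3.22 (2.37 to 4.18), on 92 UMIs in 21 nuclei against 13 UMIs that were all in 1 nucleus. In endothelial-like nuclei Nos2 was lower at the later day in Ctrl, at 32.2 (24.6 to 41.3) and 11.3 CPM (8.01 to 15.5), and in ADWA11, at 38.2 (29.2 to 49.2) and 10.6 CPM (6.70 to 15.9). Macrophage-like nuclei, for which this gene is the textbook marker of activation, held at most 0.81 CPM, and microglia-like nuclei held 0 UMIs in every library. In Ctrl at 7 dpi the exact interval then reaches 0.54 CPM.

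Ptgs2, the inducible cyclooxygenase, was at 5.10, 3.48 and 2.63 CPM at 7 dpi and at 8.03, 7.35 and 5.02 CPM at 21 dpi in Ctrl, ADWA11 and Tgfbr2-cKO, with no treatment past 2-fold. Neuron-like nuclei, which express it, held 2.71 CPM in the 7 dpi Tgfbr2-cKO library. In fibroblast-like nuclei it was at 9.23 to 10.8 CPM in the 4 Ctrl and ADWA11 libraries. In Tgfbr2-cKO it was at 3.83 (1.54 to 7.90) at 7 dpi, on 7 UMIs, and at 24.4 (17.2 to 33.6) at 21 dpi, on 37. The 21 dpi difference from Ctrl, 1.34 (0.80 to 1.84), was 0.16 without the top 5 nuclei of each library. Neutrophil-like nuclei held 225 CPM in Ctrl, 440 in ADWA11 and 416 in Tgfbr2-cKO at 21 dpi, with ratios of 0.97 (0.30 to 1.71) and 0.89 (0.18 to 1.66).

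Il10, the anti-inflammatory member, had the fewest UMIs, 269 in all. It was at 0.36 CPM (0.22 to 0.56) in Ctrl, 1.20 (0.99 to 1.44) in ADWA11 and 0.06 (0.02 to 0.12) in Tgfbr2-cKO at 7 dpi, and at 0.32 (0.20 to 0.48), 1.25 (1.01 to 1.53) and 0.34 (0.20 to 0.53) at 21 dpi. ADWA11 was above Ctrl at both days with no overlap, and its 2 days overlapped. Macrophage-like nuclei held 0.84 CPM (0.38 to 1.60) in Ctrl and 2.23 (1.77 to 2.77) in ADWA11 at 7 dpi, a log2 ratio of 1.41 (0.41 to 2.59), and 0.79 (0.26 to 1.85) and 1.94 (1.48 to 2.5) at 21 dpi, where the interval of the ratio just included 0 (1.29, -0.01 to 2.97).

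The macrophage-like sub-clusters, summed over libraries, differed in which gene they held, as a description with no test. Libraries took very different shares of them, so sub-cluster and library cannot be told apart in these sums. Cxcl2 was at 46.7 CPM in sub-cluster 8 and at most 7.08 CPM elsewhere, but 386 of its 391 UMIs came from the 861 nuclei of ADWA11 at 21 dpi. The 117 nuclei of Ctrl at 21 dpi in this sub-cluster held 1 UMI and the 96 of ADWA11 at 7 dpi held 3. Il1rn, itself among the 10 leading genes of sub-cluster 6, was highest there at 46.5 CPM, and second in sub-cluster 8, at 24.4 CPM. Il1a was highest in sub-clusters 13 and 15, both with Cd5l among their leading genes, at 81.2 and 70.6 CPM, with 904 of 938 and 827 of 884 nuclei from ADWA11 at 21 dpi. Tnf was highest in sub-cluster 19, led by the interferon-induced genes Cxcl9, Cxcl10 and Rsad2, at 36.0 CPM. Il10 was at 5.23 CPM in sub-cluster 19, 4.80 in sub-cluster 9, led by Cd163, and 4.64 in sub-cluster 12, with overlapping intervals.

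**Figure D4:**
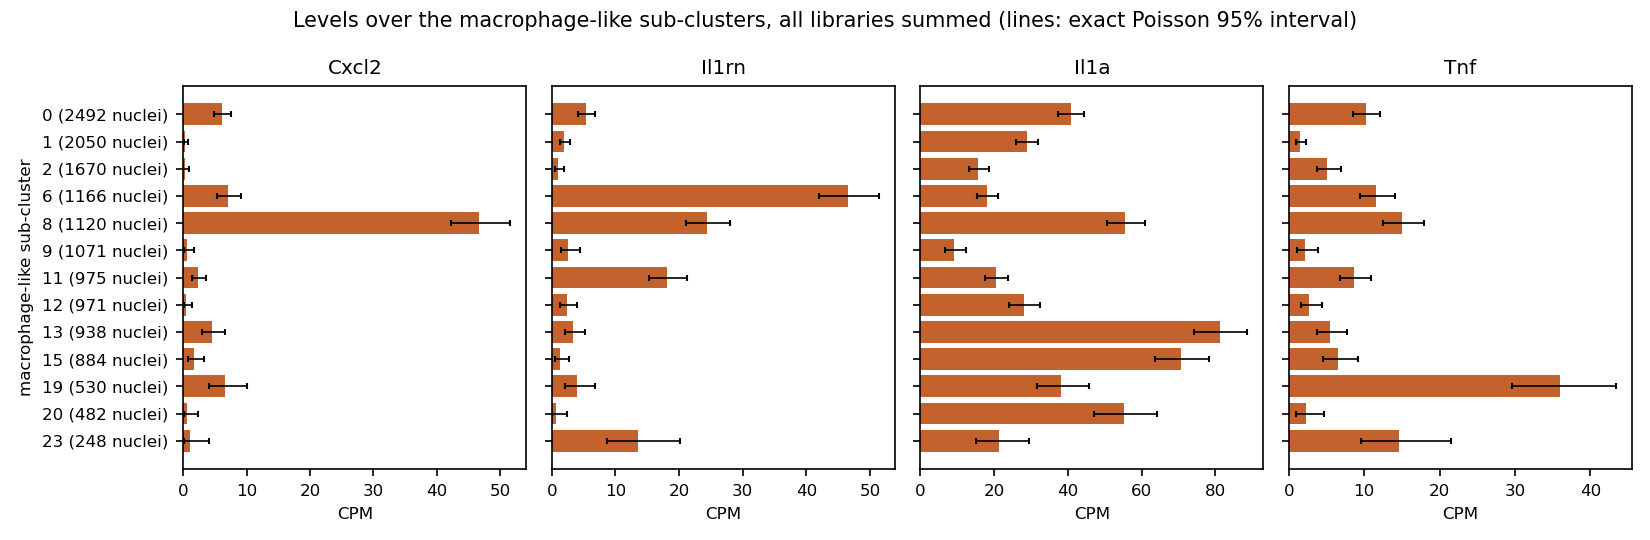
CPM of 4 genes in each macrophage-like sub-cluster, summed over the 6 libraries, with exact Poisson 95% intervals and the number of nuclei. Cxcl2 stood out in sub-cluster 8 at 46.7 CPM, nearly all of it from the 21 dpi ADWA11 library, Il1rn in sub-cluster 6 at 46.5 CPM and Tnf in sub-cluster 19 at 36.0 CPM.

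Counted over macrophage-like nuclei, and beside the share of all genes, ADWA11 at 7 dpi had 3 of the 10 genes past 2-fold higher (7.19% of all genes) and 0 lower (3.83%). Tgfbr2-cKO at 7 dpi had 4 higher (10.5%) and 1 lower (2.83%), and without the 5 nuclei with most UMIs of each gene 0 were higher and 1 lower. That library had 222 macrophage-like nuclei and 1309 myeloid ones that no marker list named. Of the latter, 965 and 247 were in sub-clusters 10 and 18, in which neuron markers were raised. The Cxcl2, Ptgs2 and Il1rn UMIs of that library lay in 4, 3 and 5 nuclei. The alternative left none of them and cannot test those calls. ADWA11 at 21 dpi had 2 higher, Il1a and Cxcl2 (2.94%), and 0 lower (6.70%), with 6 higher without those 5 nuclei and 1 with myeloid nuclei pooled. The Ctrl UMIs of Cxcl2, Ptgs2 and Il10 lay in 4 nuclei each and those of Nos2 in 2. Without those 5 nuclei these genes had no Ctrl UMI left. Tgfbr2-cKO at 21 dpi had Il1a higher (6.61%) and Il1b and Il1rn lower (5.99%), with 0 either way in male nuclei and 1 higher with myeloid nuclei pooled. From 7 to 21 dpi Ctrl had 4 higher (8.97%) and 0 lower (2.14%), ADWA11 5 higher (8.06%) and 0 lower (8.69%), and Tgfbr2-cKO 0 higher (4.21%) and 3 lower (7.60%). The shares are of genes with at least 10 UMIs over both libraries, and 3 of the member calls over time rested on fewer: Cxcl2 on 9 and Nos2 on 5 in Ctrl, and Ptgs2 on 8 in Tgfbr2-cKO. Without the 5 nuclei the counts over time were 1 higher and 1 lower in Ctrl and 1 higher in Tgfbr2-cKO. The medians of the members with a ratio were between -0.82 and 1.09, those of all genes between -0.05 and 0.10.

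In fibroblast-like nuclei, counts in either direction were 1 member for ADWA11 at 7 dpi (9.14% of all genes), 3 for Tgfbr2-cKO at 7 dpi (9.97%), 4 for ADWA11 at 21 dpi (7.75%) and 4 for Tgfbr2-cKO at 21 dpi (10.5%). Over time they were 2 in Ctrl (19.5%), 5 in ADWA11 (19.9%) and 4 in Tgfbr2-cKO (13.2%). The Tgfbr2-cKO libraries had 285 and 180 fibroblast-like nuclei, and among their called members only Ptgs2 at 21 dpi had more than 22 UMIs in them. Microglia-like nuclei had 1 for Tgfbr2-cKO at 7 dpi (18.0%), 0 at 21 dpi (7.02%), 0 in Ctrl over time (10.7%) and 1 in Tgfbr2-cKO over time (10.9%). Neutrophil-like nuclei at 21 dpi had 0 for ADWA11 (9.12%) and 2 for Tgfbr2-cKO (18.4%).

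The other 42 genes of these pathways were read in the same way. With ADWA11 at 21 dpi, 15 of 42 were past 2-fold higher and 0 lower, beside 6.55% and 9.0% of all genes, led by Cxcl3 (4.38, 44 against 2 UMIs), the pyrin gene Mefv (3.21) and the inflammasome gene Nlrc4 (2.05). By list these were 4 of 8 genes of the IL-1 and IL-18 axis, 3 of 9 inflammasome genes, 2 of 10 TNF receptor and NF-kB feedback genes, 2 of 6 IL-6 and IL-10 signalling genes, 1 of 6 prostanoid genes and 3 of 3 CXC chemokines. At 7 dpi ADWA11 had 2 of 41 higher, the neutrophil attractant Cxcl5 (5.20) and the IL-33 receptor Il1rl1 (1.01), and 1 lower, the alarmin Il33 (-1.06), beside 6.07% and 4.57% of all genes. In the 7 dpi Tgfbr2-cKO library, 55.6% of it neuron-like nuclei, 2 were higher and 35 lower of 41, beside 21.2% and 26.6% of all genes, with Cxcl5 (2.22) and the receptor subunit Il1rap (1.47) higher and Il18r1 (-3.87), Cxcl1 (-3.59) and Mefv (-3.56) lower. These counts were not repeated without neural nuclei. At 21 dpi Tgfbr2-cKO had 4 higher and 3 lower, beside 15.1% and 8.13% of all genes, led by the decoy receptor Il1r2 (1.88), Mefv (1.71) and Cxcl5 (1.47) upwards and by the prostaglandin-degrading enzyme Hpgd (-2.00), Ptges (-1.59) and Il33 (-1.22) downwards. From 7 to 21 dpi, 4 were higher and 3 lower in Ctrl (16.0% and 5.39% of all genes), 12 higher and 1 lower in ADWA11 (12.3% and 7.77%) and 33 higher and 0 lower in Tgfbr2-cKO (25.1% and 8.60%), again against the neuron-rich 7 dpi library. Within macrophage-like nuclei, 3 were higher and 1 lower of 40 with ADWA11 at 7 dpi (7.19% and 3.83% of all genes) and 3 higher and 0 lower of 41 at 21 dpi (2.94% and 6.70%), where Mefv (1.65), Il1r2 (1.49) and the IL-18 binding protein gene Il18bp (1.35) were higher. Tgfbr2-cKO had 3 higher and 2 lower of 38 at 7 dpi (10.5% and 2.83%), and 2 higher and 3 lower of 39 at 21 dpi (6.61% and 5.99%).

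Genes with the most similar pattern were sought over 58 sums of a group in a library and 18724 genes, by Pearson's r of log values, as a description in which points share libraries and groups. Il1b was nearest to Treml4 (r = 0.91) and Mcemp1 (0.90), Cxcl2 to Slfn4 and Fpr1 (both 0.87), Nlrp3 to Itgam (0.96), and Il1a to Lgmn (0.91). Il6 had no close match, with Agtr1b first at 0.67, and Nos2 was nearest to Gm36660 (0.74).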

How the data were processed

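Nuclei of dissected PT lesions were sorted by DAPI and sequenced by 10x 3′ v3.1. The deposited files hold UMI counts per gene and nucleus, which the authors made with Cell Ranger (7.2.0 per the file headers, 7.1.0 per the labels) against mm10. Barcodes between percentiles 2.5 and 97.5 of UMIs and genes, and up to percentile 97.5 of mitochondrial share, were kept per library. Clusters came from Seurat 5.3.0 with sctransform 0.4.2 (3000 variable genes, 30 components, resolution 0.5, then 1 for myeloid and 0.2 for fibroblast nuclei). A name needed 3 markers raised against the other clusters. Macrophage-like sub-clusters instead needed 3 macrophage markers at least 2-fold above microglia-like nuclei, and more of these than of microglia markers kept within 2-fold. Of them, only sub-cluster 9 had 3 markers raised against the other myeloid nuclei. The rules that separated macrophage-like from microglia-like nuclei, that set aside fibroblast sub-clusters with markers of another class or many doublet calls and that asked for 50 nuclei a group were set after clusters were seen. Doublets were scored by simulation, kept, and left out in an alternative. UMI sums gave CPM of non-mitochondrial UMIs, and totals were between 53548884 and 120379052 a library. Poisson and binomial intervals came from SciPy 1.17.1 and were tested on simulated data. Alternatives used edgeR 4.0.16 TMM factors and DESeq2 1.42.0 size factors. All 10 members were named, pathway genes by counts with at most 3 per direction, and like genes by Pearson's r. Members and lists were chosen with earlier results of these data known.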

Additional observations from a re-analysis of the deposited data

Results flagged for a closer look

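Some ratios were past 2-fold in opposite directions under the same contrast. Each rests on 1 library per group, and the difference between the contrasts was not tested. In whole libraries, the log2 ratio of Il6 with ADWA11 over Ctrl was -1.34 at 7 dpi and 1.26 at 21 dpi. Il1b with Tgfbr2-cKO over Ctrl was at -1.83 at 7 dpi and 1.78 at 21 dpi, where the first library held 55.6% neuron-like nuclei. Without neural nuclei its 7 dpi ratio turned positive, and in female nuclei its 21 dpi ratio turned negative, as given below. Il1rn at 21 over 7 dpi was at -1.39 in Ctrl and 2.39 in Tgfbr2-cKO, the latter against 52 UMIs of the same neuron-rich library. It was 0.48 there without neural nuclei and -0.21 in female nuclei.

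In macrophage-like nuclei, Cxcl2 at 21 over 7 dpi was at 2.57 in Ctrl, 3.76 in ADWA11 and -4.89 in Tgfbr2-cKO, the last against 39 UMIs of which 29 were in 1 nucleus. Ptgs2 at 21 over 7 dpi was at 1.15 in ADWA11 and, as a bound on 0 against 8 UMIs, at -3.60 in Tgfbr2-cKO. In fibroblast-like nuclei, Il6 with ADWA11 was at -1.25 at 7 dpi and 2.32 at 21 dpi. Ptgs2 with Tgfbr2-cKO was at -1.37 at 7 dpi and 1.34 at 21 dpi. Nos2 at 21 over 7 dpi was at 3.72 in ADWA11, against 7 UMIs in 1 nucleus, and -1.58 in Tgfbr2-cKO, on 5 against 18 UMIs.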

How the results depend on the processing

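No paired analysis was possible because each group has 1 library. Of 94 ratios past 2-fold, 856 values under the alternatives were computed: 668 stayed inside the interval of the reported ratio (for a bound, on its side of 0), 168 moved out of it without turning sign, and 20 turned sign. Causes were not tested. Without neural nuclei, Tgfbr2-cKO over Ctrl at 7 dpi turned to 1.07 for Il1b, 1.32 for Il1a, 1.27 for Tnf, 0.64 for Il6, 0.54 for Nos2 and 0.71 for Nlrp3, and Nlrp3 over time in Tgfbr2-cKO to -0.36. In female nuclei, Tgfbr2-cKO at 21 dpi turned to -1.12 for Il1b and -1.33 for Cxcl2, and to -3.40 for Cxcl2 in neutrophil-like nuclei, on 1 UMI, and over time Nos2 in ADWA11 turned to -0.21 and Il1rn in Tgfbr2-cKO to -0.21. In male nuclei, Tnf in microglia-like nuclei over time turned to 0.17 and Il6 in fibroblast-like nuclei of Tgfbr2-cKO at 21 dpi to -0.19. At a resolution of 0.25, Il1rn in macrophage-like nuclei turned to 0.20 at 7 dpi and Tnf in microglia-like nuclei to -1.65 at 7 dpi and 2.27 over time. With myeloid nuclei pooled, chosen after seeing the data, Il1b turned to 1.08 at 21 dpi and Il1rn over time to 0.72. By the mean of CPM per nucleus, Il1rn in neutrophil-like nuclei turned to -0.26. Library counts of members moved from 8 to 4 without neural nuclei and 5 by the mean per nucleus for Tgfbr2-cKO at 7 dpi, from 7 to 3 in female nuclei for ADWA11 at 21 dpi, and from 3 to 1 with all barcodes, 7 without neural nuclei, 5 in female and 6 in male nuclei for Tgfbr2-cKO at 21 dpi. Over time they moved from 2 to 4 in male nuclei of Ctrl, 6 to 3 in female nuclei of ADWA11 and 8 to 4 without neural nuclei in Tgfbr2-cKO. Macrophage-like counts moved from 5 to 1 without the top 5 nuclei, 2 in female, 2 in male nuclei, 2 at a resolution of 0.25 and 3 pooled for Tgfbr2-cKO at 7 dpi, from 2 to 6 without the top 5 nuclei and 1 pooled for ADWA11 at 21 dpi, and from 3 to 0 in male nuclei and 1 pooled for Tgfbr2-cKO at 21 dpi. Over time they moved from 4 to 2 without the top 5 nuclei and in either sex in Ctrl, from 5 to 3 in male nuclei of ADWA11, and from 3 to 1 without the top 5 nuclei and 5 with log-normalised clusters in Tgfbr2-cKO. Without the top 5 nuclei, some genes had no UMI left in 1 of the libraries compared, so those counts are not a test of their calls.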

Other observations

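In whole libraries, Il1b UMIs per Il1rn UMI, the ligand set against its antagonist, were 0.475 (exact 95% interval 0.381 to 0.591) in Ctrl, 0.243 (0.201 to 0.292) in ADWA11 and 1.46 (1.01 to 2.12) in Tgfbr2-cKO at 7 dpi. At 21 dpi they were 2.30 (1.86 to 2.86), 3.03 (2.70 to 3.40) and 6.34 (5.23 to 7.74). Each 21 dpi value was above the 7 dpi value of the same condition with no overlap of the intervals, which cover counting error only. The 2 genes lie mainly in different cell groups. Values within a group do not rest on the shares of groups, but can rest on those of its sub-clusters. In Ctrl, macrophage-like sub-cluster 6 held 157 of 171 Il1rn UMIs in 402 nuclei at 7 dpi. At 21 dpi it held 12 of 54 in 136 nuclei, and 16 of the 44 macrophage-like Il1b UMIs were in 1 nucleus. From 7 to 21 dpi, macrophage-like S100a8 and S100a9 went from 1.21 to 3.64 CPM in Ctrl and 2.01 to 7.40 in ADWA11. The part of free neutrophil RNA was not tested. In macrophage-like nuclei the values at 7 and 21 dpi were 0.064 (0.032 to 0.118) and 0.815 (0.535 to 1.24) in Ctrl, and 0.053 (0.033 to 0.081) and 0.562 (0.460 to 0.685) in ADWA11, higher at 21 dpi without overlap. In Tgfbr2-cKO they were 0.125 (0.0028 to 0.932), on 1 against 8 UMIs, and 0.50 (0.154 to 1.44), with overlap. In neutrophil-like nuclei at 21 dpi they were 11.2 (6.19 to 22.2) in Ctrl, 18.1 (13.2 to 25.4) in ADWA11 and 9.07 (6.87 to 12.2) in Tgfbr2-cKO. At 7 dpi those nuclei held at most 1 Il1rn UMI a library, and the intervals overlapped those of 21 dpi in Ctrl and ADWA11.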
